A study of Mus musculus with 43 samples.

Results

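Gene expression was compared 30 days after transfer between CD4 T cells that had met antigen until day 10 (the off group, 5 arrays) and cells whose antigen ended on day 3 (the none group, 5 arrays). These are 10 of the 43 arrays of the series, chosen by their titles, and 22180 genes were tested, each through 1 probe set. Donor cells were CD45.1+ Rag2o/o CD4+ T cells carrying the AND T cell receptor transgene, which recognises a moth cytochrome c (MCC) peptide, and every recipient of both groups was an iMCC mouse, in which doxycycline switches on an invariant chain that carries this peptide in dendritic cells. All recipients received an anti-CD40 antibody on the day before transfer and drank doxycycline at 100 µg/ml from that day until day 3. The none group then had none, whereas the off group stayed at 100 µg/ml until day 10. Donor cells were sorted as CD4+CD90.2+CD45.1+ cells, and very small amounts of RNA were amplified before hybridisation. Comparison groups are day 30 int, kept at 100 µg/ml throughout (5 arrays), day 30 low, kept at 10 µg/ml after day 3 (5 arrays), and the day 10 int (4 arrays) and day 10 none (5 arrays) groups. Naive AND cells (5 arrays) were sorted 3 days after transfer into non-transgenic hosts.

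The off cells had been without doxycycline for 20 days at the sort and the none cells for 27 days, so longer antigen exposure and a shorter antigen-free time cannot be told apart. No label names separate animals behind the replicates, and the p-values therefore reflect only sample-to-sample spread, which may be technical. In bulk RNA, fewer cells of a type and less RNA per cell cannot be told apart either.

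A T cell that keeps meeting antigen induces inhibitory receptors and transcription factors such as Tox, Maf and Ikzf2, and it lowers Il7r, the receptor chain for the survival cytokine IL-7. When antigen is removed, immediate signalling genes such as Nr4a1 decay quickly, whereas a chromatin-level programme can outlast the signal. CD4 cells primed only briefly become resting memory cells with high Il7r.

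The sort markers were in place in both groups. Mean log2 levels in off and none were 9.50 and 9.21 for Cd4, 10.8 and 10.8 for Thy1 (CD90), and 11.04 and 11.04 for Ptprc (CD45), and none of these genes was called. Rag2, deleted in the donors, read 2.87 and 3.04, near the array background, and does not check the label because the sources used here do not place its probes relative to the deleted part. Array medians of the off and none groups ran from 3.31 to 3.38.

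Off arrays 1 and 2 (replicates 1 and 2) stood apart from off arrays 3 to 5. Over the 174 genes that were higher in int than in none on day 10, the mean log2 level was 6.70 and 6.81 in off arrays 1 and 2 and 6.16, 6.15 and 6.19 in off arrays 3, 4 and 5, against 5.85 to 5.98 in the none arrays and 6.93 to 7.21 in the day 30 int arrays. All 5 off arrays therefore lay above all 5 none arrays and below all 5 int arrays, with arrays 1 and 2 nearer to int. The 5 naive arrays read 6.20 to 6.54, above off arrays 3 to 5, so this mean is no measure of past antigen alone. The labels record no difference between these arrays, so the difference of each gene described at length is also given without them, and their part beyond that was not tested.

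**Figure D1:**
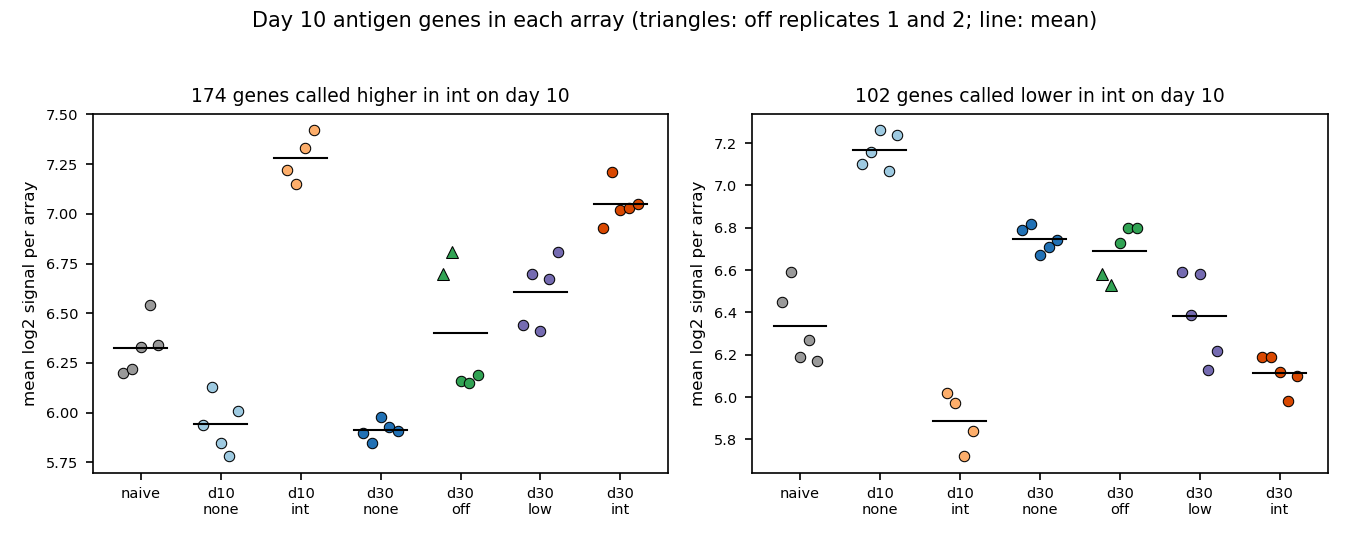
Mean log2 signal per array over the 174 genes called higher (left) and the 102 genes called lower (right) in day 10 int than in day 10 none, for 7 groups on the x axis. Points are arrays, triangles are off replicates 1 and 2 and the line is the group mean. In the left panel the off arrays lie between the none and int arrays of day 30, and in the right panel off arrays 3 to 5 overlap the none arrays.

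For the genes that the day 10 comparison found lower in int (102 genes), off arrays 1 and 2 averaged 6.58 and 6.53, and the averages of off arrays 3 to 5 were 6.73, 6.80 and 6.80. The none arrays read 6.67 to 6.82 and the day 30 int arrays 5.98 to 6.19. The antigen-lowered genes of arrays 3 to 5 thus lay inside the range of the none arrays, while those of arrays 1 and 2 lay just below it.

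The off and none groups differed in a small set of genes, most of them higher in off. With limma and Benjamini-Hochberg adjusted p under 0.05, 59 of 22180 genes differed (0.266%), of which 43 were higher in off (0.194%) and 16 lower (0.0721%). The 5 genes with the lowest p-values were the potassium channel gene Kcnma1, the adaptor gene Plekho1, the heme-degrading enzyme gene Hmox1 and the tetraspanin gene Cd81, which rose, and the vesicle-traffic gene Sytl2, which fell. The inhibitory receptor gene Tigit and the transcription factor genes Maf and Tox also rose, but were not called without off arrays 1 and 2. The largest fold changes were those of S100a8, Hspa1a and S100a9, described with the markers of other cells and handling. The rises ran from 0.56 to 3.44 on the log2 scale and the falls from -0.49 to -2.07, and 35 genes passed a 2-fold change (30 higher, 5 lower, 0.158% of all genes). At an unadjusted p under 0.05 there were 2470 genes (11.1%). The 5 off arrays did not overlap the 5 none arrays in 42 of the called genes (33 higher, 9 lower), against 371 of all genes tested (1.67%).

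The called genes differed in how bright they were. The median level of the genes that rose was 4.41 in none and 6.24 in off, whereas that of the genes that fell was 3.87 and 3.01. In 8 of the 16 lower genes and 2 of the 43 higher genes both group means lay under 4, near the array background, and this holds for the odorant and pheromone receptor genes Olfr503, Olfr677 and Vmn1r174. Within the off group, array 2 was the highest array in 21 of the 43 genes that rose and array 1 in 10, and array 3 was the lowest in 19.

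The number of calls rested on few arrays. Without off array 1 it was 24, without off array 2 it was 29, and on leaving out any other single off or none array it was 46 to 66. Without off arrays 1 and 2 together 18 genes were called, 14 of them among the 59: Kcnma1, Plekho1, Hmox1, Sytl2, Cd81, Cdk5rap1, Rgs1, Gprasp2, Jrkl, C1qb, S100a8, S100a9, Nobox and Vmn1r174. The remaining 4 (Adam4, Dync2li1, Decr2 and Zc3h4), like Cdk5rap1, are named here because of this result.

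Kcnma1, which encodes the pore of the large-conductance calcium-activated potassium channel, gave the lowest p-value. It read 12.22, 12.22, 12.47, 12.39 and 12.48 in off arrays 1 to 5 and 10.69, 9.89, 10.03, 10.48 and 10.86 in none arrays 1 to 5. The off arrays lay in a narrow range above every none array, and arrays 1 and 2 were the lowest of them. The rise was 1.97 ± 0.20 (SE) on the log2 scale (adjusted p = 2.7e-08, limma), and 2.06 without off arrays 1 and 2.

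The none group of day 30 was the low one for Kcnma1. Mean levels (± SD) were 12.45 ± 0.11 in day 10 none, 12.48 ± 0.18 in day 10 int, 12.21 ± 0.08 in day 30 low, 12.15 ± 0.61 in day 30 int and 11.58 ± 0.34 in naive cells, against 10.39 ± 0.42 in day 30 none. A second Kcnma1 probe set read a mean of 2.79 over all arrays and differed by 0.03, so the Kcnma1 result rests on a single probe set.

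Plekho1, a pleckstrin-homology adaptor protein, read 7.56, 7.68, 6.64, 6.51 and 6.40 in off and 5.47, 4.88, 5.05, 4.92 and 4.02 in none. Every off array was above every none array, with off arrays 1 and 2 highest. The rise was 2.09 ± 0.26 (adjusted p = 5.21e-06), and 1.65 without off arrays 1 and 2 (adjusted p = 0.00498). Day 30 int lay at 7.25 ± 0.34 (SD, n = 5), and the off minus int difference was -0.29 ± 0.26, which was not called.

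Cd81, a tetraspanin that organises surface receptors, read 6.66, 7.22, 5.90, 6.07 and 6.27 in off and 4.00, 4.15, 3.64, 4.82 and 5.11 in none. The groups did not overlap. It rose by 2.08 ± 0.31 (adjusted p = 0.000115), and by 1.74 without off arrays 1 and 2 (adjusted p = 0.0224). Naive cells read 7.20 ± 0.42 for Cd81, and the off minus naive difference of -0.78 was not called (adjusted p = 0.166).

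Rgs1, a GTPase activator that dampens chemokine receptor signals, read 6.67, 6.82, 6.65, 6.96 and 6.21 in off and 5.22, 4.2, 5.28, 5.46 and 4.80 in none. In Rgs1, off arrays 1 and 2 lay within the range of arrays 3 to 5. The rise was 1.67 ± 0.30 (adjusted p = 0.00267), and 1.61 without off arrays 1 and 2 (adjusted p = 0.0457). Rgs1 also belongs to the list of handling-stress genes described below.

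Sytl2, a Rab27-binding protein of vesicle transport, fell. It read 3.02, 3.48, 3.69, 3.89 and 4.11 in off and 5.51, 4.68, 5.46, 5.53 and 5.64 in none, with none array 2 below its group. The fall was -1.73 ± 0.24 (adjusted p = 2.85e-05), and -1.47 without off arrays 1 and 2 (adjusted p = 0.00943). Day 30 int read 3.61 ± 0.13 (off minus int 0.03 ± 0.24) and naive cells 5.66 ± 0.46. Day 10 none averaged 4.13, day 10 int 3.745 and day 30 low 3.88. Day 30 none, at 5.36, was thus above the other primed groups named here.

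**Figure D2:**
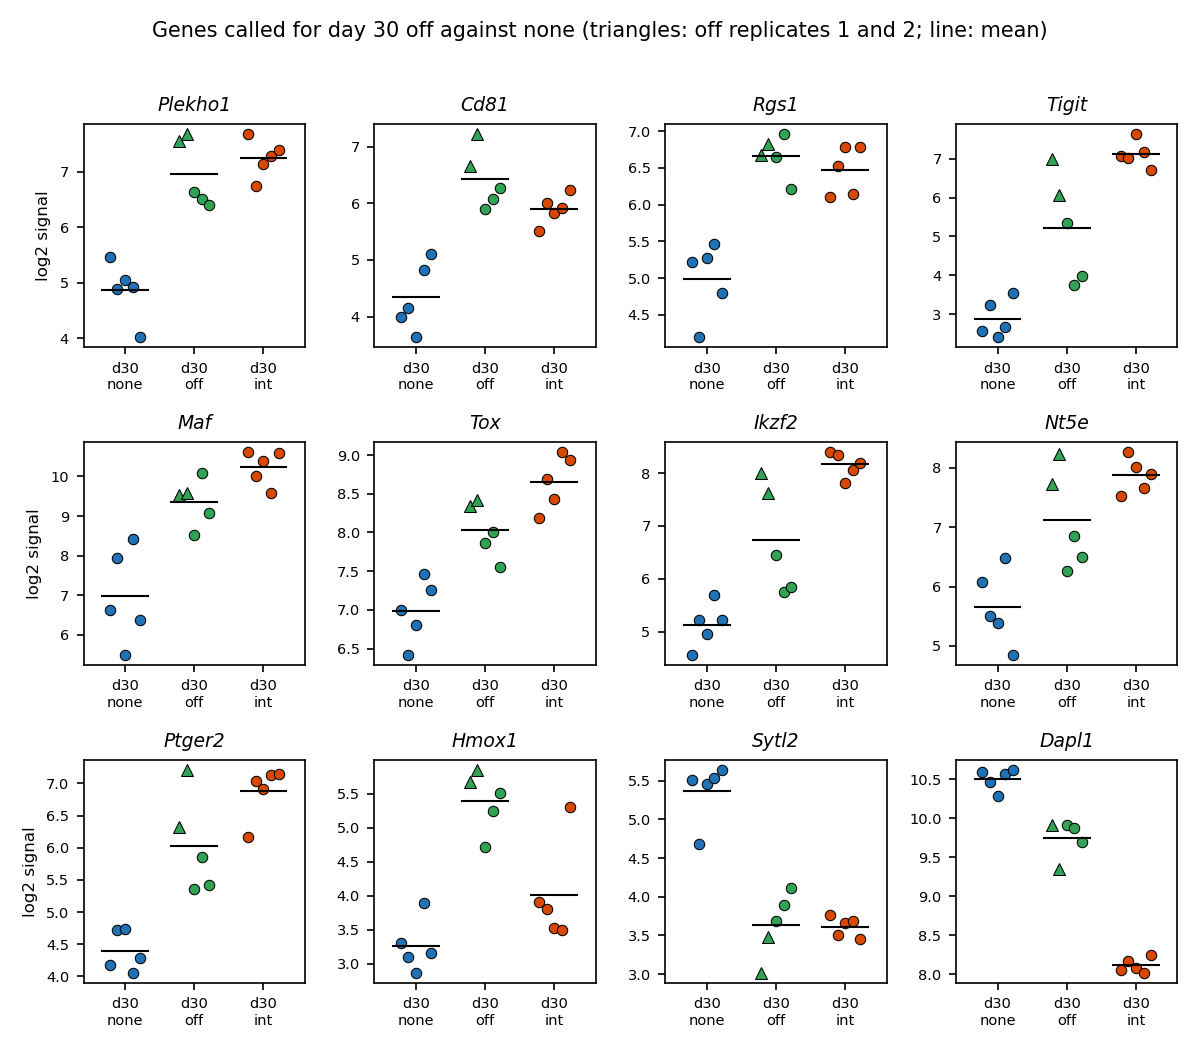
Log2 signal per array of 12 genes called for day 30 off against none, with day 30 none, off and int on the x axis. Points are arrays, triangles are off replicates 1 and 2 and the line is the group mean. Plekho1, Cd81, Rgs1 and Sytl2 in off overlap int, the means of Tigit, Ikzf2 and Dapl1 lie between those of none and int, and the mean of Hmox1 is highest in off.

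Cdk5rap1, an enzyme that modifies mitochondrial transfer RNA, and Gprasp2, a sorting protein of G protein-coupled receptors, rose less. Cdk5rap1 read 5.85, 5.91, 5.23, 5.91 and 5.75 in off and 4.27 to 4.77 in none (1.22 ± 0.21, adjusted p = 0.00158, and 1.12 without off arrays 1 and 2, adjusted p = 0.0457). Gprasp2 read 3.88, 4.95, 3.73, 5.10 and 4.77 in off, 2.51 to 3.19 in none and a mean of 3.19 in int, and it rose by 1.62 ± 0.29 (adjusted p = 0.0031) and was above int by 1.29 ± 0.29 (adjusted p = 0.0213). Its difference was 1.67 without off arrays 1 and 2 (adjusted p = 0.0228), and its second probe set differed by 0.54. Cdk5rap1 and Gprasp2 thus separated the groups in every array, Gprasp2 at a low level.

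Among the brighter genes that fell, Plp2, a membrane proteolipid, read 4.74, 5.11, 4.59, 5.62 and 4.01 in off and 5.96, 6, 6.58, 6.60 and 6.29 in none (-1.47 ± 0.29, adjusted p = 0.0113, and 0.0518 without off array 5). It was -1.55 without off arrays 1 and 2 (adjusted p = 0.0676), and its second probe set differed by -0.46. Klk8, a kallikrein protease, read 7.67 to 7.91 in off and 8.11 to 8.89 in none (-0.68 ± 0.16, adjusted p = 0.0495), and the call held in 2 of the 10 fits that each left out an array. The Klk8 difference was -0.64 without off arrays 1 and 2 (adjusted p = 0.293). Plp2 and Klk8 did not overlap between the groups.

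Genes of the persistent-antigen programme made up the next group of rises. Of 16 measured transcription factors of a list linked to exhaustion, 3 rose (Maf, Tox and Ikzf2) and none fell, where 0.194% of all genes rose, and the list median was 0.46 against -0.006 over all genes. Of 20 measured genes of an inhibitory receptor list, 2 rose (the receptor gene Tigit and the ecto-enzyme gene Nt5e) and the median was 0.30. Over the 7444 genes above 5 on at least 4 arrays the median was 0.11. These lists are shown by counts and medians, with no test of the list. Without off arrays 1 and 2 no member of either list was called, and the medians were 0.26 and 0.13.

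Tigit, an inhibitory receptor for CD155, read 6.98, 6.07, 5.34, 3.76 and 3.98 in off and 2.57, 3.23, 2.42, 2.67 and 3.56 in none. The off arrays spread over more than 3 log2 units, arrays 4 and 5 lay just above the highest none array, and the groups did not overlap. Tigit rose by 2.34 ± 0.40 (adjusted p = 0.00158), and without off arrays 1 and 2 the difference was 1.47 (adjusted p = 0.188). Cells kept on antigen read 6.70 to 7.63, a range that off array 1 reached, and off was below int on average by -1.89 ± 0.40 (adjusted p = 0.0102).

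Maf, a bZIP factor of IL-10-producing and follicular helper cells, read 9.53, 9.59, 8.51, 10.08 and 9.08 in off and 6.62, 7.94, 5.49, 8.42 and 6.36 in none. The lowest off array lay only just above the highest none array, and the order of the off arrays did not set arrays 1 and 2 apart. The rise was 2.39 ± 0.46 (adjusted p = 0.00737), and 2.26 without off arrays 1 and 2 (adjusted p = 0.108). A second, dimmer probe set gave 1.41, and naive cells were at 3.66 ± 0.78.

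Tox, an HMG-box factor needed for the exhausted state of CD8 cells, read 8.34, 8.42, 7.87, 8.01 and 7.55 in off and 7, 6.42, 6.80, 7.46 and 7.26 in none. All off arrays were above all none arrays. Tox rose by 1.05 ± 0.20 (adjusted p = 0.00747), and 0.82 without off arrays 1 and 2 (adjusted p = 0.259). Naive cells read 8.21 ± 0.18 for Tox, and the off minus naive difference was -0.17 (adjusted p = 0.79).

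Ikzf2, the Ikaros-family factor Helios, read 8.01, 7.63, 6.45, 5.74 and 5.84 in off and 4.56, 5.21, 4.96, 5.69 and 5.22 in none. Off arrays 4 and 5 lay just above the highest none array. The rise of 1.61 ± 0.38 was called at an adjusted p of 0.0495 and held on leaving out 3 of the 10 arrays, with adjusted p between 0.0611 and 0.208 without off array 1, 2 or 3 or none array 1, 2, 3 or 5. The Ikzf2 difference was 0.88 without off arrays 1 and 2 (adjusted p = 0.503). Naive cells expressed Ikzf2 at 8.98 ± 0.31, above off.

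Nt5e, the ecto-enzyme CD73, read 7.73, 8.24, 6.26, 6.86 and 6.50 in off and 6.07, 5.5, 5.38, 6.48 and 4.85 in none. The groups overlapped, since off array 3 lay below none array 4. The rise was 1.46 ± 0.30 (adjusted p = 0.0123), and adjusted p was 0.0622 to 0.0921 without off array 1, off array 2 or none array 5. The difference was 0.88 without both off arrays 1 and 2 (adjusted p = 0.358).

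Ptger2, Ptpn11 and Ubash3b also rose. Ptger2, the EP2 receptor for prostaglandin E2, read 6.32, 7.21, 5.36, 5.86 and 5.42 in off and 4.18, 4.72, 4.74, 4.06 and 4.29 in none, a rise of 1.64 ± 0.31 (adjusted p = 0.0066, and 0.0511 without off array 2). Ptpn11, the phosphatase SHP-2, rose by 1.55 ± 0.30 (adjusted p = 0.00871), and Ubash3b, a phosphatase that restrains T cell receptor signals, by 0.97 ± 0.22 (adjusted p = 0.0319). Neither call held without off array 1 or without off array 2. Adjusted p was then 0.0534 to 0.0611 for Ptpn11, and Ubash3b was also lost without off array 3, none array 2 or none array 5 (0.0717 to 0.142 over the 5). With both off arrays 1 and 2 left out the differences were 1.15 for Ptger2 (adjusted p = 0.282), 1.02 for Ptpn11 (0.334) and 0.73 for Ubash3b (0.359). Ubash3b was the only called member among 29 measured genes of the T cell receptor complex and its proximal signalling, whose median was 0.08.

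Dapl1, a gene of resting and central memory cells, fell slightly. It read 9.91, 9.35, 9.91, 9.88 and 9.70 in off and 10.59, 10.47, 10.29, 10.57 and 10.62 in none, and 8.02 to 8.25 in day 30 int. The off arrays lay below all none arrays and above all int arrays. The mean was 9.75 in off, 9.73 in day 10 none and 10.51 in day 30 none. Dapl1 had a fall of -0.76 ± 0.18 (adjusted p = 0.0497) and an off minus int difference of 1.64 ± 0.18 (adjusted p = 1.75e-07). The call held without none array 3 and was lost without any other single off or none array (adjusted p 0.0585 to 0.184). The difference without off arrays 1 and 2 was -0.68 (adjusted p = 0.325). Dapl1 was the only called member of 22 measured naive and central memory genes, whose median was -0.09.

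Day 30 int against none (2.21% of genes called) and day 30 low against none (0.654%) share the none arrays, so their values stand beside those of off and are no independent support. Kcnma1, Plekho1, Sytl2, Tigit, Maf, Tox, Ikzf2, Nt5e and Ptger2 differed from none by 1.76, 2.38, -1.75, 4.23, 3.27, 1.67, 3.04, 2.22 and 2.48 in int, and by 1.97, 2.09, -1.73, 2.34, 2.39, 1.05, 1.61, 1.46 and 1.64 in off. In low they were 1.82, 1.52, -1.48, 2.93, 2.03, 0.78, 1.36, 1.94 and 1.59. The Hmox1 difference was 0.74 in int, which was not called (adjusted p = 0.194), and 2.13 in off.

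To ask how much of the response under antigen outlasted its withdrawal, the day 10 comparison of int with none was set beside day 30 off against none. The 2 comparisons share no array, although they share the variance estimate of the fit. On day 10, 276 of 22180 genes differed (1.24%), 174 higher and 102 lower in int. Of these, 16 also differed on day 30, which is 5.8% of the 276, beside 0.266% of all genes, and 27.1% of the 59, beside the 1.24%. Without off arrays 1 and 2 only Plekho1 was called on both days.

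**Figure D3:**
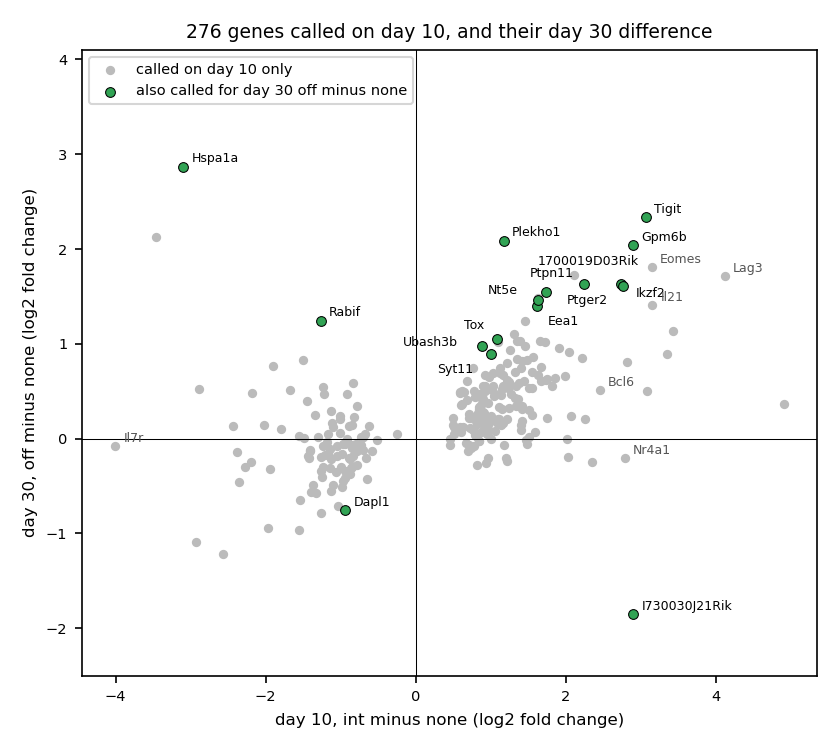
Log2 fold change of the 276 genes called on day 10 (int minus none, x axis) against day 30 (off minus none, y axis), 1 point a gene, with genes also called on day 30 in green. The green points lie mainly in the upper right quadrant, while Il7r and Nr4a1 lie near 0 on the y axis.

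Most genes that were higher under antigen on day 10 had a positive but uncalled difference on day 30. Of the 174, 151 had a positive difference and 23 a negative one, and 12 were called higher. Over all 22180 genes 10801 were positive. The median of the 174 was 0.44, beside -0.006 over all genes and 0.11 over the 7444 genes above 5 on at least 4 arrays. Without off arrays 1 and 2 the median was 0.25 and 134 were positive. The 102 genes lower on day 10 had a median of -0.11, and of -0.02 without off arrays 1 and 2.

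The array-by-array counts show the same split. The number of the 174 genes that lay above all 5 none arrays was 113 and 127 in off arrays 1 and 2 (64.9% and 73.0%) and 58, 61 and 71 in off arrays 3, 4 and 5 (33.3%, 35.1% and 40.8%). The same share over all genes was 15.1% to 16.8% in the off arrays. In the day 30 int arrays 73.6% to 87.9% of the 174 genes lay above none, more than in any off array. Of the 102 genes lower on day 10, 36 and 41 lay below all none arrays in off arrays 1 and 2, and 18, 19 and 19 in arrays 3 to 5, where the share over all genes was 14.1% to 15.5%.

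The 12 genes higher on both days were Tigit, Plekho1, Gpm6b, Ptger2, 1700019D03Rik, Ikzf2, Ptpn11, Nt5e, Eea1, Tox, Ubash3b and Syt11. Eea1, an early-endosome tether, rose by 1.40 ± 0.24 on day 30 after 1.62 on day 10, and the day 30 difference was 1.08 without off arrays 1 and 2 (adjusted p = 0.12). Gpm6b, a membrane proteolipid, read 7.27, 8.39, 5.45, 5.46 and 5.54 in off and 3.99 to 5.00 in none, so off arrays 1 and 2 led its rise of 2.05 ± 0.37, which was 1.11 without them (adjusted p = 0.251). Its day 10 difference was 2.90.

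Dapl1 was lower on both days, and 3 genes were called in opposite directions on the 2 days. Hspa1a and Rabif were lower on day 10 (-3.10 and -1.27) and higher on day 30 (2.87 and 1.25), and I730030J21Rik was higher on day 10 (2.90) and lower on day 30 (-1.85). None of the day 30 differences of Hspa1a, Rabif (0.85, adjusted p = 0.361) and I730030J21Rik (-1.73, adjusted p = 0.106) was called without off arrays 1 and 2.

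Upstream sequence is given for Tigit and Ptger2 because they rose on both days and their windows hold a match to the NFAT core. Other genes that rose on both days hold this match too. Windows are the 250 bases before the start site in RefSeq GRCm38.p6. Capitals mark the NFAT core GGAAAA on either strand, 14 bases before the start in Tigit (chr16:43664185-43664434, minus strand) and 31 bases before it in Ptger2 (chr14:44987861-44988110, plus strand). The Tigit window lies inside the annotated span of the gene, before a start site in it. Tox and Maf have no entry in that table.

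Tigit: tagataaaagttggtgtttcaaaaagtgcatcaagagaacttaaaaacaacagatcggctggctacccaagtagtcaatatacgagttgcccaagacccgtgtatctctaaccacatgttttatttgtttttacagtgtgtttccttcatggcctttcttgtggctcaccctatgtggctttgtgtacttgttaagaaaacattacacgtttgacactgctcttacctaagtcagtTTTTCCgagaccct

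Ptger2: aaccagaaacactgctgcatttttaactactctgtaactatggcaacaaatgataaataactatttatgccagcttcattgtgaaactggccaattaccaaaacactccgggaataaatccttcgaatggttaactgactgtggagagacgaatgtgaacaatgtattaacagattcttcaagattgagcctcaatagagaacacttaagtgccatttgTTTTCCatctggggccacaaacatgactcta

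Both windows were searched on both strands for AP-1 (TGANTCA), the NR4A response element (AAAGGTCA), the NFAT core (GGAAAA) and the cyclic AMP response element (TGACGTCA). Of 32851 windows of all RefSeq genes, 6.75%, 1.34%, 20.4% and 1.55% held each in turn. In the 42 windows of 35 genes that rose on day 30 the shares were 0%, 0%, 21.4% and 4.76%, and in the 17 windows of 10 genes that rose on both days they were 0%, 0%, 35.3% and 11.8%. Genes with several windows count more than once in these shares. By gene, the NFAT core was held by 8 of the 35 and by 5 of the 10. A match describes letters only and was not tested for binding.

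Some genes with large day 10 differences were not called on day 30, and their effects differed between the days. Il7r, the IL-7 receptor chain, read 9.98, 9.80, 10.42, 10.49 and 10.33 in off and 10.31, 10.32, 10.44, 10.23 and 10.13 in none, and 4.99 to 7.76 in int. Off and none overlapped and both lay above int. Il7r differed by -0.08 ± 0.42 on day 30 after -4.00 on day 10, and the effects differed between the days by 3.92 ± 0.61 (adjusted p = 0.000241). The day 30 difference of Il7r was 0.13 without off arrays 1 and 2.

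Nr4a1, an orphan nuclear receptor induced within the first hours of T cell receptor signalling, read 5.89, 6.45, 6.12, 5.78 and 5.38 in off and 5.88 to 6.39 in none. Its day 10 difference of 2.79 was -0.21 ± 0.28 on day 30, and the difference between the days was -2.998 ± 0.41 (adjusted p = 3.84e-05). Bcl6, the follicular helper repressor, had 2.46 on day 10 and 0.51 ± 0.27 on day 30, with a difference between the days of -1.94 ± 0.40 (adjusted p = 0.0115). Without off arrays 1 and 2 the day 30 difference was -0.37 for Nr4a1 and 0.11 for Bcl6.

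Across all genes 46 showed such a difference between the days (0.207%). Egr2, another signalling-induced factor, was not among them. It had 1.82 on day 10 and 0.55 ± 0.29 on day 30 (adjusted p = 0.485 for day 30). Its difference between the days was -1.27 ± 0.42 (adjusted p = 0.341). Egr2 read 7.71, 7.45, 6.58, 6.07 and 5.58 in off arrays 1 to 5. The day 30 difference of Egr2 was -0.05 without off arrays 1 and 2. No member of the 29 measured early T cell receptor-induced genes was called, and their median was 0.21, beside 0.71 for day 30 int, where 10 members were higher. Without off arrays 1 and 2 the median for off was 0.12.

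**Figure D4:**
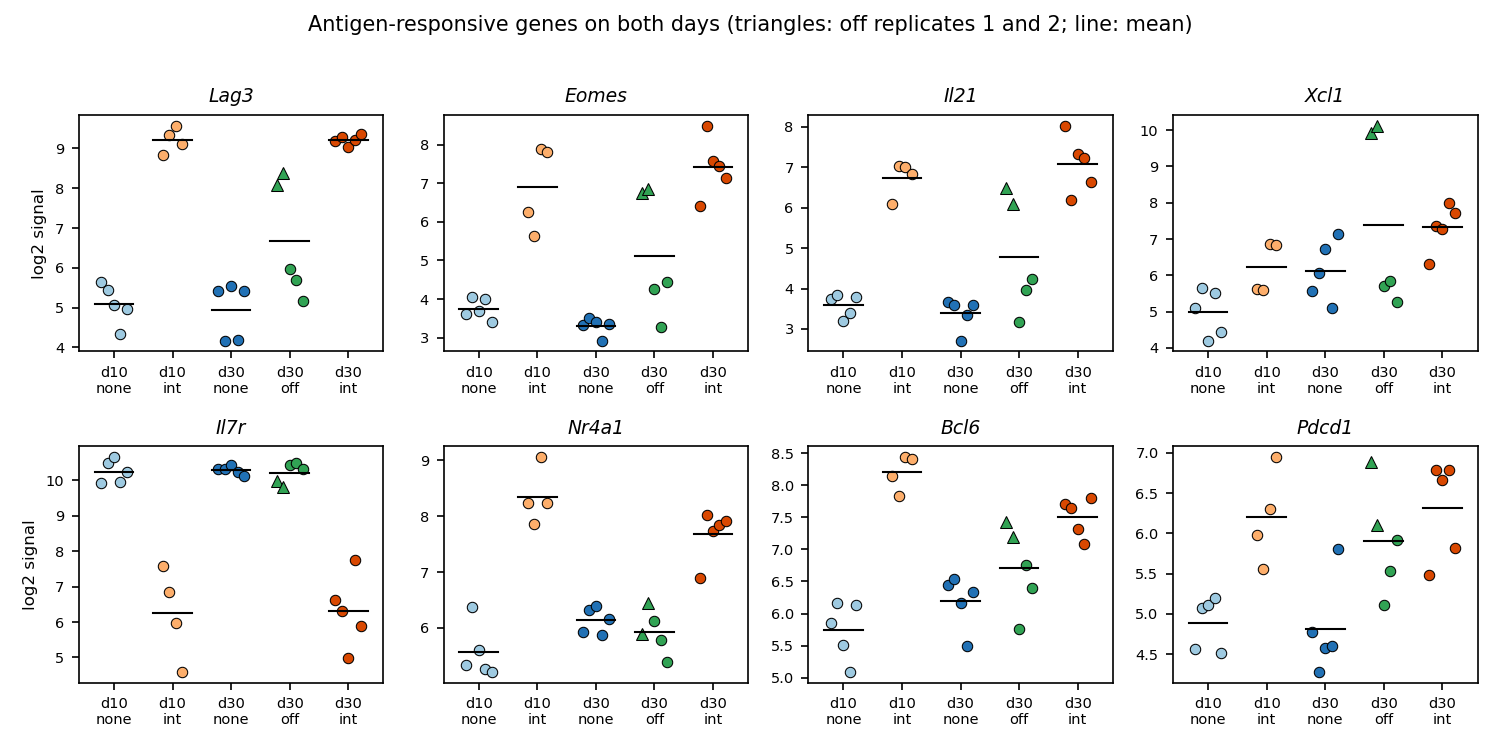
Log2 signal per array of 8 antigen-responsive genes, with day 10 none and int and day 30 none, off and int on the x axis. Points are arrays, triangles are off replicates 1 and 2 and the line is the group mean. Il7r and Nr4a1 in off lie at the none level, whereas in Lag3, Eomes, Il21 and Xcl1 off replicates 1 and 2 stand above the other off arrays and the none arrays.

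Several well-known antigen genes missed the threshold, with arrays 1 and 2 far above the rest. Lag3, the inhibitory receptor that binds MHC class II, read 8.09, 8.39, 5.98, 5.70 and 5.16 in off, 4.17 to 5.55 in none and 9.04 to 9.37 in int, a difference of 1.72 ± 0.42 (adjusted p = 0.0592) that was 0.67 without off arrays 1 and 2. Eomes, a T-box factor, read 6.75, 6.86, 4.27, 3.27 and 4.43 in off and 2.92 to 3.50 in none (1.81 ± 0.48, adjusted p = 0.0967, and 0.69 without off arrays 1 and 2). Il21, the follicular helper cytokine, read 6.49, 6.09, 3.18, 3.96 and 4.23 in off and 2.71 to 3.68 in none (1.41 ± 0.42, adjusted p = 0.149, and 0.41 without them).

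In these genes off arrays 3 to 5 were nearer to the none arrays than to off arrays 1 and 2. For Xcl1, a chemokine for XCR1 dendritic cells, off arrays 1 and 2 read 9.92 and 10.12, above every int array (6.30 to 8.00), while off arrays 3 to 5 read 5.72, 5.84 and 5.28 and none 5.11 to 7.13. Bhlhe40, a transcription factor of effector T cells, had 6.42 and 6.53 in off arrays 1 and 2, 4.35 to 4.67 in off arrays 3 to 5 and 4.60 to 5.58 in int. The none arrays read 3.57 to 4.05 for Bhlhe40, below every off array, a difference of 1.44 ± 0.36 (adjusted p = 0.0674). Pdcd1, which encodes PD-1, was split less clearly, with off array 5 close to off array 2. It read 6.89, 6.10, 5.11, 5.53 and 5.92 in off and 4.28 to 5.81 in none. Pdcd1 differed by 1.10 ± 0.33 (adjusted p = 0.152), and by 0.71 without off arrays 1 and 2. Without those arrays the Xcl1 and Bhlhe40 differences were -0.50 and 0.64. None of these differences passed the test.

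The differences of other T cell genes were not called: Ifng by 0.85, Tbx21 by 0.81, Il2 by -0.79, Foxp3 by -0.26 and Mki67 by 0.11. Among the lists, the 42 cell cycle genes (median 0.04), 23 glycolysis genes (-0.05), 26 oxidative phosphorylation genes (-0.01), 32 interferon-stimulated genes (0.13), 28 survival genes (0.05) and 24 Th1 genes (0.14) held no called member. The 27 memory-linked genes (0.05) and 29 chemokine and homing receptors (0.03) held none either.

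Markers of other cells moved with the comparison in part. Of 28 measured myeloid and dendritic cell markers 3 rose (S100a8, S100a9 and C1qb), where 0.194% of all genes rose, and the list's summed log2 level was 8.66 to 9.91 in off and 7.97 to 8.45 in none, without overlap. The defining markers Lyz2 (3.55 off, 2.84 none), Itgam (2.76, 2.89), Csf1r (3.47, 3.12) and Adgre1 (3.01, 2.79) were near background, and 20 of the 28 lay under 4 in both groups. Of the other 8, Tyrobp, an adaptor of myeloid and NK cells, read 4.70 to 6.77 in off and 2.84 to 5.04 in none (1.55 ± 0.45, adjusted p = 0.144). Fcer1g, which pairs with Fc receptors, averaged 4.43 in off and 3.70 in none without overlap (0.73 ± 0.23, adjusted p = 0.169), and neither was called. Cd68 (4.61, 4.40), C1qa (4.16, 4.31) and Mpo (0.28 higher in off) were not called either.

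S100a8, a calcium-binding protein of neutrophils, read 5.31, 5.44, 7.90, 7.34 and 8.49 in off and 3.85, 2.58, 2.92, 3.32 and 4.62 in none. Here off arrays 3 to 5 were the high ones. Its difference was 3.44 ± 0.79 (adjusted p = 0.0365) and 4.45 without off arrays 1 and 2 (adjusted p = 0.0224), and S100a9 gave 2.87 ± 0.67 (adjusted p = 0.0458). S100a8 was not called without off array 3, 4 or 5 or none array 1, 2, 3 or 4 (0.0512 to 0.12), and S100a9 gave 3.73 without off arrays 1 and 2 (adjusted p = 0.0228). With 1 array left out, the S100a9 call held only without off array 2 (0.0554 to 0.136 without any other).

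C1qb, a complement chain of macrophages, rose by 0.73 ± 0.16 (adjusted p = 0.0199) at levels of 4.00 and 3.28, and was lost without off array 4 or 5 or none array 3 or 5 (0.0565 to 0.0898). It was 0.87 without off arrays 1 and 2 (adjusted p = 0.0262). Naive cells read 8.02 ± 2.40 for S100a8 and day 10 none 6.58. The sort for CD4 and CD90.2 is meant to remove neutrophils and macrophages, and the part of other cells in these 3 results was not tested.

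Hmox1, the heme-degrading enzyme, which macrophages also express, read 5.67, 5.85, 4.71, 5.24 and 5.51 in off, 3.30, 3.10, 2.87, 3.89 and 3.16 in none and 3.49 to 5.31 in int. The off arrays were above all none arrays, including arrays 1 and 2, and the rise was 2.13 ± 0.28 (adjusted p = 1.34e-05), 1.89 without off arrays 1 and 2 (adjusted p = 0.00498). Off was above int by 1.39 ± 0.28 (adjusted p = 0.00661). The myeloid sum was also higher in off than in none, and within off the sum was 8.94, 8.66, 9.35, 9.25 and 9.91 in arrays 1 to 5. The part of other cells in the Hmox1 result was not tested.

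**Figure D5:**
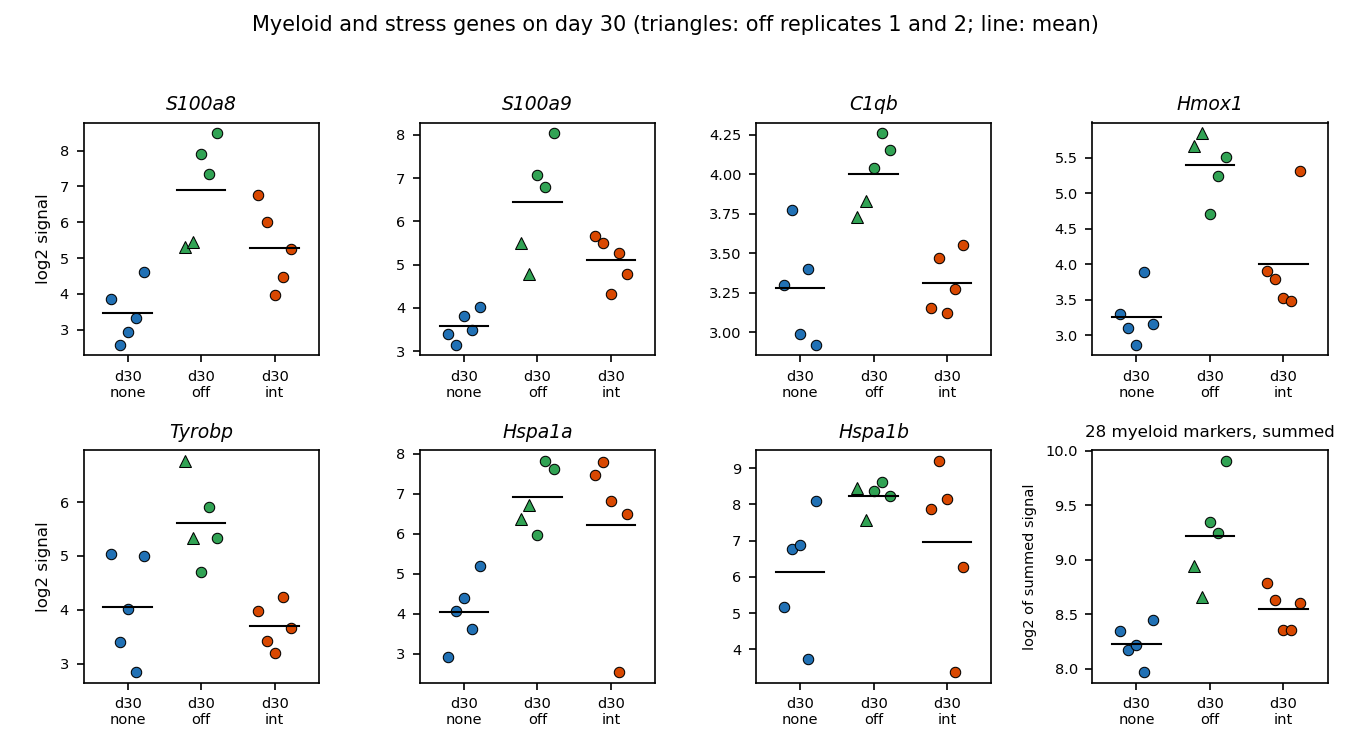
Log2 signal per array of 7 myeloid and stress genes and the log2 of the summed signal of 28 myeloid markers, with day 30 none, off and int on the x axis. Points are arrays, triangles are off replicates 1 and 2 and the line is the group mean. S100a8, S100a9 and C1qb are highest in off replicates 3 to 5.

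Of 25 measured heat-shock and handling-stress genes 2 rose, Hspa1a and Rgs1, where 0.194% of all genes rose. The list median was 0.30, beside -0.006 over all genes and 0.11 over the 7444 genes above 5 on at least 4 arrays. It was 0.15 without off arrays 1 and 2, where only Rgs1 was called. In 6 members all off arrays lay above all none arrays, whereas 1.67% of all genes separated in either direction. The summed log2 level was 13.12 to 13.18 in off and 12.89 to 13.04 in none, without overlap. Hspa1b differed by 2.12 ± 0.69, which was not called (adjusted p = 0.189). Hspa1a, an inducible heat-shock chaperone, read 6.38, 6.73, 5.97, 7.83 and 7.63 in off and 2.92, 4.07, 4.39, 3.61 and 5.20 in none, without overlap, and 2.54 to 7.80 in int. It rose by 2.87 ± 0.63 (adjusted p = 0.024), but was lost without off array 1, 2, 4 or 5 or none array 1 or 4 (0.0504 to 0.0768). The difference was 3.11 without both off arrays 1 and 2 (adjusted p = 0.106). The part of tissue handling, to which these genes also respond, was not tested.

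Of 18 measured B and plasma cell markers Cd22 alone was called (1.67 ± 0.34, adjusted p = 0.0137, lost without off array 1 or 2 at 0.0512 and 0.0611, and 1.46 without both, adjusted p = 0.242). Cd22 is the sialic acid-binding receptor of B cells, whereas Cd79a (3.24 in off, 3.70 in none) was near background in both groups. In all, 16 of 18 markers lay under 4 in both groups, all but Cd22 and Ighm, and Ighm was not called. The summed level of the B and plasma cell markers was 9.80 to 9.93 in off and 9.62 to 9.90 in none, with overlap. Among 8 measured markers of NK, CD8 and gamma-delta cells none was called, with 3 of the 8 under 4 in both groups. Their sum was 8.23, 7.94, 7.09, 7.30 and 7.08 in off arrays 1 to 5 and 6.52 to 6.93 in none, without overlap. Eomes and Tyrobp belong to this list too. The part of such cells in the results was not tested. The erythroid and stromal markers overlapped between the groups.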

How the data were processed

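Gene expression was measured on 43 arrays, 1 per sample, with groups taken from the sample titles. The deposited table holds 1 value per probe set and array, which the authors had processed to a log2 scale. Base 2 is judged from the range, 1.46 to 13.87, and array medians of 3.28 to 3.44 show values already comparable between arrays. Normalization method, array build and software were not given in the sources used here. Of 41345 probe sets, 23521 carried 1 symbol, 1814 several and 16010 none. Each gene was read from 1 single-symbol probe set, the brightest on average over the 43 arrays, and 1082 symbols had several. The number of arrays limits the precision.

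Group means of all 43 arrays were fitted with limma 3.58.1 (R 4.3.3), with a variance trend and Benjamini-Hochberg adjustment over 22180 genes, and a gene was called at an adjusted p under 0.05. Every adjusted p in the text is from this model across all genes or from an alternative of it. SE is the standard error of the fit and ± after a level is the SD. On simulated data for this comparison over 22180 genes, 32%, 76%, 96% and 100% of changes of 0.5, 1, 1.5 and 2 log2 units were recovered, and 5% of calls were false. The simulated noise was normal, independent between arrays and of the same spread per gene in all groups. It held no split within a group like that of the off arrays, so the 5% is not an error rate of the real calls. Named genes were a set of T cell and sort genes, up to 20 called genes in each direction by log2 fold change, leaving out unnamed gene models and the like (20 higher and 13 lower), called or largest members of each list, and the 10 largest calls shared with day 10. Members, gene lists and alternatives were chosen with earlier results of these data known.

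Replicate numbers do not pair the samples: same-numbered off and none arrays had deviations correlated at -0.017 to 0.014, and only off array 5 correlated best with its own number. No 2 arrays were identical. Promoter windows are RefSeq GRCm38.p6, and gene symbols matched RefSeq for 22139 of 22180 genes. Summed marker levels are log2 of the sum of linear signals. Alternatives changed the arrays in the fit, the normalization, the variance model, the filter on dim genes and the choice of probe set.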

Additional observations from a re-analysis of the deposited data

Results flagged for a closer look

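Of 240 group values examined, 9 had 1 array far from the other 4, where chance gives about 1 in 20. In the off group these were Il18r1, an IL-18 receptor chain (array 2 at 4.67, the others 5.79 to 6.16), the condensin gene Smc2 (array 3 at 6.46, the others 5.80 to 5.90) and the respiratory gene Sdhd (array 4 at 4.83, the others 5.51 to 5.57). In the none group they were Fam43a (array 1 at 3.10), the chromatin organiser Satb1 (array 5 at 7.13), S100a4 (array 2 at 5.88), Sytl2 (array 2 at 4.68), Ccr4 (array 5 at 3.03) and the summed erythroid and platelet markers (array 3 at 6.11, the others 6.24 to 6.29).

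Off minus none on day 30 differed from int minus none on day 10 in 13 named genes, by the interaction term of the limma fit. The difference was negative for Nr4a1 (-2.998), I730030J21Rik (-4.751), Bcl6 (-1.943), Olfr503 (-1.331) and Olfr677 (-0.954). It was positive for Il7r (3.921), Hspa1b (5.588), Hspa1a (5.972), S100a8 (4.927), S100a9 (4.686), C1qb (1.191), Hmox1 (2.731) and Kcnma1 (1.931). On day 10 the int minus none difference was -3.46 for Hspa1b and -3.10 for Hspa1a, both called, and -1.49 for S100a8, -1.82 for S100a9 and -0.47 for C1qb, none of them called.

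Among the 17824 probe sets with several symbols or none, which the gene analysis left out, 20 were called for off against none in a fit of all 41345 probe sets, 10 higher and 10 lower.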

How the results depend on the processing

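The 59 calls fell to 18 when only the off and none arrays were fitted, 19 with the 4 day 30 groups, 20 with the replicate block in those 4 groups (15 of the 59 among them), 19 with array weights and 18 without off arrays 1 and 2, an alternative chosen after seeing the data. They numbered 24 to 66 when each array was left out in turn, lowest without off array 1. The calls shared with day 10, 16 in all, numbered 8 with array weights, 29 over the 7444 genes above 5 on at least 4 arrays, 1 without off arrays 1 and 2, and 6 to 21 when each array was left out in turn, lowest without off array 2. Quantile normalization (47), median centring (60), a fit with no variance trend (57), a robust trend (53), the mean of probe sets (63), the filter (65) and leaving out 4 arrays of other groups (80) stayed within 1.5 times the 59. The share of calls higher in off was 72.9%, and 87.7% under the filter on dim genes.

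Of the 59 genes, 15 kept their call whichever single off or none array was left out, and 7 of these (Kcnma1, Plekho1, Hmox1, Sytl2, Cd81, Cdk5rap1 and Rgs1) also held under every other setting that tested them. No called value of a named gene changed sign under any setting. With only the off and none arrays fitted, the lost calls included Tigit, Maf, Tox, Ikzf2, Nt5e, Ptger2, Ptpn11, Ubash3b, Gpm6b and Eea1. The cause of the lower counts was not tested. Signal near background limits the calls of dim genes.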

Other observations

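Klk1b27, a kallikrein-family protease gene, did not lie between none and int. It read 3.10, 4.46, 3.20, 2.44 and 3.48 in off, 3.34, 5.52, 6.69, 5.58 and 5.91 in none and 6.33 to 8.76 in day 30 int. Off was lower than none by -2.07 ± 0.47 (adjusted p = 0.0319, limma) and lower than int by -3.93 ± 0.47 (adjusted p = 1.02e-06). Off and none overlapped through none array 1, and the call against none was lost on leaving out any of 8 of the 10 arrays (off arrays 1, 3, 4 and 5 and none arrays 2 to 5, adjusted p 0.0543 to 0.104). The group means of Klk1b27 were 2.80 in day 10 none, 3.63 in day 10 int and 3.02 in naive cells.

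Gzmk, a granzyme gene, was higher in int than in none by 4.36 on day 30 (adjusted p = 1.74e-10), and off was below int by -2.87 ± 0.38 (adjusted p = 1.09e-05). Its off minus none difference of 1.48 ± 0.38 was not called (adjusted p = 0.0906). Il18r1, which helps form the receptor for IL-18, was lower in int than in none by -2.53, and off was above int by 1.44 ± 0.34 (adjusted p = 0.0281), with an uncalled off minus none difference of -1.09 ± 0.34 (adjusted p = 0.17). Hif1a, the hypoxia-response factor, differed from none by 0.57 ± 0.14 in off (adjusted p = 0.0591) and by 1.24 in int, and off was below int by -0.67 ± 0.14 (adjusted p = 0.00905). These comparisons share the off, none or int arrays of day 30.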
